A study of Mus musculus with 2 samples.

Results

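Msl1 and Nsl1 were mapped at the transcription start sites (TSSs) of 40 genes listed for the cell cycle: cyclins, cyclin-dependent kinases (Cdks), E2f and retinoblastoma proteins, and regulators of Cdks and of mitosis. The genes were taken by name from a list that was drawn up with earlier results of these data known. They are 40 of 22359 protein-coding genes, and all 40 lie among the 21978 genes whose flanks held at least 20 reads in each library. For the comparison by phase, 16 of them were grouped as G1/S genes and 15 as G2/M genes. The other 9, most of which act in transcription, belong to neither group.

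Both libraries came from wild type mouse embryonic stem cells (mESCs), labelled E14 and P26 and of the 129P2/OlaHsd background and grown on feeder cells before a feeder-free passage. The chromatin was cross-linked with formaldehyde, and was precipitated with an antibody to Msl1 (3208) or to Nsl1 (3130), both raised for the study. There was 1 library per antibody, so no test between samples was possible, and every interval below is a 95% interval that covers counting error only, exact for the ratio of a library to its local level and a normal approximation on the log2 scale for the ratio of Msl1 over Nsl1. The Msl1 library was made with the NEXTFlex kit and read to 50 bases, the Nsl1 library with NEBNext and to 36 bases, so the kit, the read length and the antibody cannot be told apart.

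Cyclins are regulatory subunits that bind and activate Cdks. D cyclins with Cdk4 or Cdk6, and E cyclins with Cdk2, phosphorylate the retinoblastoma family, which releases E2f transcription factors and allows entry into S phase. Cyclins A and B with Cdk1 drive mitosis, and the spindle checkpoint holds the cell until all chromosomes are attached. Embryonic stem cells divide fast and pass through a short G1. Msl1 and Nsl1 are scaffold subunits of the MSL and NSL complexes, which share the acetyltransferase Mof, the main enzyme that acetylates lysine 16 of histone H4.

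The Msl1 library held 19483142 reads and the Nsl1 library 24883001 reads after 1 read was kept per position and strand. The ratio given below is the number of reads per kb within 500 bases of a TSS over the number per kb from 5 to 50 kb on both sides, the local level, in the same library. A ratio of 1 is the local level, and 3 or more is called past the fold. A lower ratio cannot be told apart from a site bound in fewer of the cells. Of 6 marker genes of pluripotent cells, Pou5f1 and Klf4 were past the fold for Msl1, with ratios of 5.2 and 4.99, and the others lay between 1.9 and 2.51. Of 5 marker genes of fibroblasts such as feeder cells, Twist2 was past it with 4.3 and the rest lay between 1.08 and 2.55. For Nsl1 no gene of either list was past it. Such ratios say where reads lie and do not measure expression, so they do not settle which cells were present.

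The promoters below were picked as examples that hold the motifs counted further on, and no single motif was found in most of the 40 genes. Each line gives the bases upstream of the TSS on mm9, 5′ to 3′ on the strand of the gene, ending before any annotated transcript, and capitals mark the motifs. Cdk4, the partner of the D cyclins, and Cdk7, the Cdk-activating kinase, had the highest Nsl1 over Msl1 ratios of the 40 genes. CACGTG, added after it had been seen in Cdk4, is in capitals in both, and Bub3 and Aurka, next in that order, held none.
Cdk4, chr10:126500390-126500589, plus strand: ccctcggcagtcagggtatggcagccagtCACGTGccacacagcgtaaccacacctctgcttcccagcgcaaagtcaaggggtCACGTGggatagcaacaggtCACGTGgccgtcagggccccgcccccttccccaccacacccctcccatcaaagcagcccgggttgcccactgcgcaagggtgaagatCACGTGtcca
Cdk7, chr13:101500898-101501097, minus strand: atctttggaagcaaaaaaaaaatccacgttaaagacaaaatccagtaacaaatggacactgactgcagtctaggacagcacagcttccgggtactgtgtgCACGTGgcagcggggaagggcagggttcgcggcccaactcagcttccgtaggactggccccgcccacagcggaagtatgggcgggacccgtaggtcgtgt
Cdk1, Ccnb2, Cdc20 and Aurka act in mitosis and stand for the G2/M promoters. In them TTTGAA, the cell cycle genes homology region (CHR), CCAAT (read on the minus strand as ATTGG) and, in Cdk1, an E2F site are in capitals.
Cdk1, chr10:68815687-68815851, minus strand: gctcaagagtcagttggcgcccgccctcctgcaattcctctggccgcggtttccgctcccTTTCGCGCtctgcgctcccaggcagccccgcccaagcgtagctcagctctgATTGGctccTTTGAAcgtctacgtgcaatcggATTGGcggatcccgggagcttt
Ccnb2, chr9:70269362-70269561, minus strand: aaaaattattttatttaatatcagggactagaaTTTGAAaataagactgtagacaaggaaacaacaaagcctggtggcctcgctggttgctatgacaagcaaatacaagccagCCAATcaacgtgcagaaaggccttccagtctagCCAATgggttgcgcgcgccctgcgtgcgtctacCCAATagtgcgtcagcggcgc
Cdc20, chr4:118109958-118110157, minus strand: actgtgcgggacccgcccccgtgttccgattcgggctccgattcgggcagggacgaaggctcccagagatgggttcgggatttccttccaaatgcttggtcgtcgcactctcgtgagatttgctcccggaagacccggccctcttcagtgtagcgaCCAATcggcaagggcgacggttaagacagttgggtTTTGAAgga
Aurka, chr2:172196071-172196180, minus strand: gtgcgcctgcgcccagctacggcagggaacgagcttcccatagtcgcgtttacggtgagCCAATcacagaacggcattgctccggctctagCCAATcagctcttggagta
The Cdk4 stretch holds CACGTG 4 times, and the Cdk7 stretch holds it 1 time. The stretch of Aurka ends between its own RefSeq start and the divergent TSS of Cstf1, and so does not reach its TTTGAA at 32 to 27 bases upstream of the TSS. The TTTGAA in capitals in Ccnb2, 167 to 162 bases upstream, lies upstream of its CCAAT matches. A second TTTGAA of Ccnb2, 5 to 10 bases downstream of the TSS, is not printed. A second one of Cdk1, 24 to 19 bases upstream, is not printed either.

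Reads of both proteins lay above the local level at most of the 40 TSSs. For Msl1, 21 of 40 were past the fold, against 23.6% of all protein-coding TSSs, and the median ratio was 3.09 (1.13 to 6.98), lowest to highest in parentheses, against 1.84 over all. For Nsl1, 18 of 40 were past it, against 23.4%, with a median of 2.62 (0.703 to 7.85) against 1.68. In both libraries together 10 TSSs were past the fold, against 11.7% of all. The other members split into 11 past it for Msl1 only, 8 for Nsl1 only and 11 for neither. The lower bound of the interval was above 1 at 38 of 40 TSSs for Msl1, against 52.6% of all, and at 34 for Nsl1, against 49.8%. The 500 bases around these TSSs are GC-rich, with a median of 64.1% against 57.6% over all protein-coding TSSs, and the part of base composition in these counts was not tested. Over the 40 TSSs the log2 Msl1 and Nsl1 ratios had a Pearson's r of 0.212 and a Spearman's rho of 0.112, and over 21387 TSSs of all genes 0.587 and 0.602. The GC percent had a Pearson's r of 0.538 with the log2 Msl1 ratio and 0.369 with the log2 Nsl1 ratio over these 21387 TSSs. Over the 40 TSSs these values were 0.205 and -0.107. All these correlations are descriptions across TSSs that share the same 2 libraries.

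**Figure D1:**
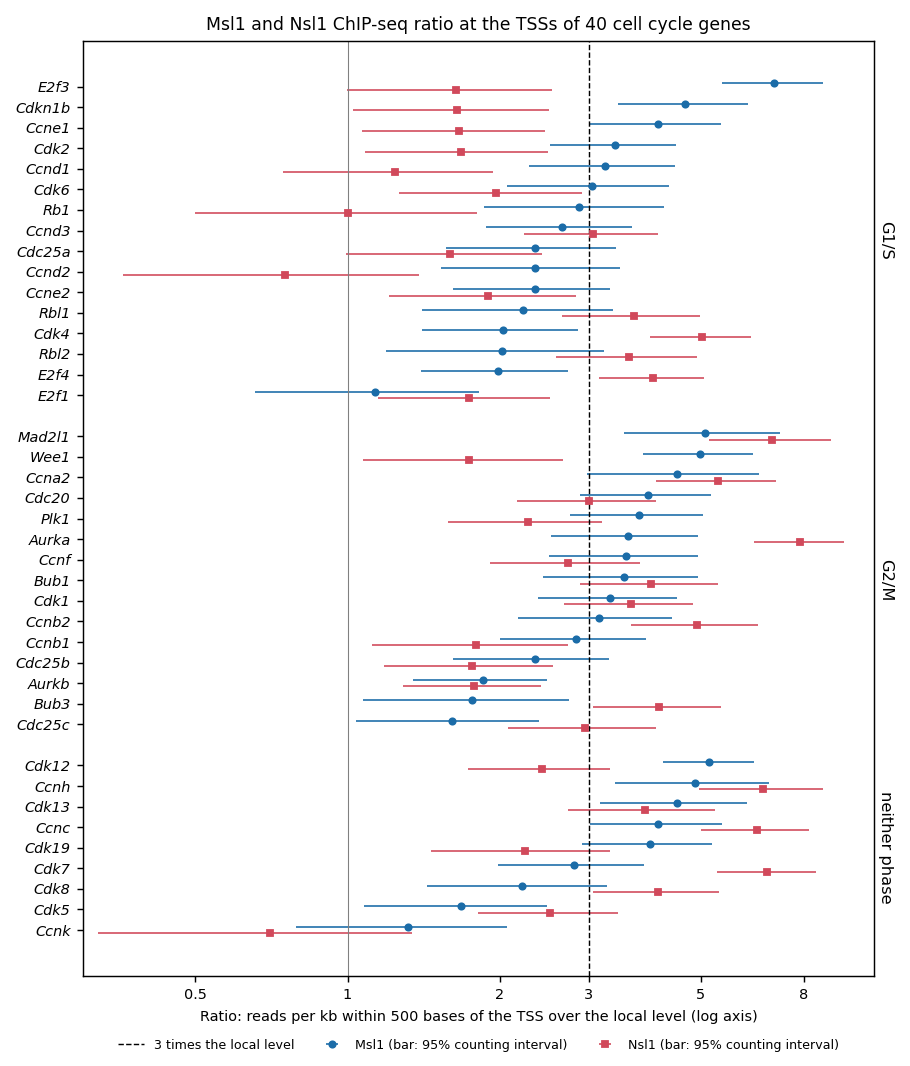
Ratio of reads within 500 bases of the TSS to the local level (log axis) for the 40 genes, with Msl1 as circles, Nsl1 as squares, and bars for the 95% counting interval of 1 library each. The dashed line is 3 times the local level: Msl1 passes it at 21 genes, Nsl1 at 18, and both at 10. Over all protein-coding TSSs the shares are 23.6%, 23.4% and 11.7%. No G1/S gene, of 16, passes it in both.

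The phase groups were set side by side by counting the TSSs past the fold in 1 or both libraries. Over all protein-coding TSSs, 23.6% were past the fold for Msl1, 23.4% for Nsl1 and 11.7% for both. At the G1/S genes, 6 of 16 were past the fold for Msl1 and 5 for Nsl1, and 0 for both. With only 16 genes, the G1/S counts for Nsl1 and for both lie near the shares over all. At the G2/M genes, 10 of 15 were past it for Msl1, 8 for Nsl1 and 7 for both: Ccna2, Ccnb2, Cdk1, Cdc20, Aurka, Bub1 and Mad2l1. Of these 7, only Mad2l1 had both intervals above the fold, and the Msl1 interval of each of the others includes 3. The 9 other genes had 3 past it in both, Ccnc, Ccnh and Cdk13. The median Msl1 ratio was 2.51 at G1/S, 3.52 at G2/M and 3.96 at the other genes, and the median Nsl1 ratio 1.71, 3.0 and 3.87. Every G2/M gene lay above the median Nsl1 ratio of all protein-coding TSSs, as did 8 of 16 G1/S genes. The ranges of the groups overlap in both libraries, genes are not replicates, and the difference between the groups was not tested. The count of 0 G1/S genes past the fold in both depends on the fold and on the level used: it was 4 at a fold of 2, 4 against the genome level and 1 with other TSSs taken out of the flanks, where the G2/M count was 9, 12 and 8. With a window of 1000 bases the G2/M count fell from 7 to 3, and at a fold of 4 to 2, with 0 G1/S genes in each. Within 2 kb of the TSS the medians of the groups lay close together, at 2.38 for G1/S and 2.34 for G2/M with Msl1, and at 1.44 and 1.41 with Nsl1. Single calls also depend on the setting: over 7 other windows, levels, shifts, starts and read filters, 10 members stayed past the fold for Msl1 and 8 for Nsl1, 4 and 15 never passed it, and 26 and 17 crossed it in some setting.

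Among the D cyclins, the growth-factor-induced partners of Cdk4 and Cdk6, Msl1 and Nsl1 were not distributed alike. The TSS of Ccnd1 (chr7:152125774) had 39 Msl1 reads within 500 bases, a ratio of 3.23 (2.28 to 4.44), and 19 Nsl1 reads within 500 bases, a ratio of 1.24 (0.744 to 1.94). Ccnd2 (chr6:127101066) had 26 Msl1 reads within 500 bases, a ratio of 2.35 (1.53 to 3.47), and 10 Nsl1 reads within 500 bases, a ratio of 0.752 (0.36 to 1.39). For both genes the Nsl1 interval includes 1, and the Nsl1 interval of each lies below its Msl1 interval. Ccnd3 had ratios of 2.66 for Msl1 and 3.06 for Nsl1, past the fold for Nsl1 only. Of the E cyclins, the partners of Cdk2 at the start of S phase, Ccne1 was past the fold for Msl1 (4.11 for Msl1 and 1.66 for Nsl1) and Ccne2 in neither library (2.35 for Msl1 and 1.89 for Nsl1). The densest 300 bases near Ccne2 lay 1200 bases upstream of the TSS in both libraries.

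Cdk4, the catalytic partner of the D cyclins, was the reverse of Ccnd1. At its TSS (chr10:126500590) lay 34 Msl1 reads within 500 bases, a ratio of 2.03 (1.4 to 2.85), and 82 Nsl1 reads within 500 bases, a ratio of 5.02 (3.97 to 6.27). The Nsl1 reads of Cdk4 were densest 50 bases upstream of the TSS, and its Msl1 reads 850 bases downstream, in the gene body. The other G1 kinases were past the fold for Msl1 only: Cdk2, the partner of the E cyclins, had ratios of 3.38 for Msl1 and 1.68 for Nsl1, and Cdk6, the close relative of Cdk4, of 3.04 for Msl1 and 1.97 for Nsl1. The Cdk2 interval for Msl1 starts at 2.51 and that of Cdk6 at 2.07, so counting error alone spans the fold for both.

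The E2f factors, which switch on S-phase genes, held both the highest and the lowest Msl1 ratio of the 40 at the starts used. E2f3 (chr13:30077537) had 83 Msl1 reads within 500 bases, a ratio of 6.98 (5.52 to 8.73), at the 99.3 percentile of all protein-coding TSSs, but 20 Nsl1 reads within 500 bases, a ratio of 1.64 (0.996 to 2.54). At a RefSeq start of E2f3 that lies 395 bases upstream, the Msl1 ratio was 2.92 (2.03 to 4.09) and so under the fold, and at another, 1277 bases downstream, it was 4.2 (3.09 to 5.59). E2f1 (chr2:154395628), the classical activator, had 17 Msl1 reads within 500 bases, a ratio of 1.13 (0.657 to 1.82), and 28 Nsl1 reads within 500 bases, a ratio of 1.74 (1.15 to 2.52). The E2f1 values depend on the start too: RefSeq places it 466 bases downstream, where the Msl1 ratio was 2.74 (1.96 to 3.74) and the Nsl1 ratio 1.87 (1.25 to 2.68). E2f4, which mostly represses together with the pocket proteins, was past the fold for Nsl1 only (1.98 for Msl1 and 4.02 for Nsl1).

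The pocket proteins, which hold E2f factors in check, also differed. Rb1, the retinoblastoma gene (chr14:73725629), had 26 Msl1 reads within 500 bases, a ratio of 2.87 (1.86 to 4.23), and 11 Nsl1 reads within 500 bases, a ratio of 1.0 (0.499 to 1.8), so Nsl1 was at the local level there. Its relatives Rbl1 and Rbl2 were past the fold for Nsl1 only, with ratios of 2.22 for Msl1 and 3.68 for Nsl1 at Rbl1. Rbl2 (chr8:93593956) had 18 Msl1 reads within 500 bases, a ratio of 2.02 (1.19 to 3.22), and 42 Nsl1 reads within 500 bases, a ratio of 3.61 (2.59 to 4.91). Cdkn1b, an inhibitor of the E cyclin and Cdk2 complex, was past it for Msl1 only (4.66 for Msl1 and 1.64 for Nsl1). Cdc25a, the phosphatase that removes the inhibitory phosphates from Cdk2 (chr9:109778083), had 29 Msl1 reads within 500 bases, a ratio of 2.35 (1.57 to 3.4), and 22 Nsl1 reads within 500 bases, a ratio of 1.59 (0.995 to 2.42), past the fold in neither.

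Of the A and B cyclins and their kinase Cdk1, Ccna2, Ccnb2 and Cdk1 were past the fold in both libraries. Ccna2 (chr3:36471072), the cyclin of S phase and early mitosis, had 29 Msl1 reads within 500 bases, a ratio of 4.48 (2.98 to 6.51), and 58 Nsl1 reads within 500 bases, a ratio of 5.41 (4.08 to 7.05). Ccnb2 had ratios of 3.14 for Msl1 and 4.91 for Nsl1 and Cdk1 of 3.31 for Msl1 and 3.63 for Nsl1. Ccnb1, the main mitotic partner of Cdk1, was past the fold in neither library, with ratios of 2.84 (2.01 to 3.9) for Msl1 and 1.79 (1.12 to 2.73) for Nsl1, both above the local level. Ccnf, an F-box cyclin that binds no Cdk, was past it for Msl1 only (3.56 for Msl1 and 2.73 for Nsl1).

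Wee1 and the Cdc25 phosphatases set Cdk1 activity from opposite sides. Wee1, the kinase that inhibits Cdk1 (chr7:117265864), had 68 Msl1 reads within 500 bases, a ratio of 4.98 (3.84 to 6.35), and 21 Nsl1 reads within 500 bases, a ratio of 1.74 (1.07 to 2.67), and these intervals do not overlap. Cdc25b and Cdc25c, which activate Cdk1, were past the fold in neither library. Cdc25b had ratios of 2.35 for Msl1 and 1.77 for Nsl1, in a window that also holds the TSS of Spef1, 333 bases away on the other strand. Cdc25c had 25 Msl1 reads within 500 bases, a ratio of 1.61 (1.04 to 2.39), and 38 Nsl1 reads within 500 bases, a ratio of 2.95 (2.07 to 4.07).

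At the kinases and checkpoint genes of mitosis, Nsl1 ranged more widely than Msl1. Aurka (chr2:172196006), the centrosome and spindle kinase, had 39 Msl1 reads within 500 bases, a ratio of 3.58 (2.53 to 4.93), and 104 Nsl1 reads within 500 bases, a ratio of 7.85 (6.36 to 9.6), the highest Nsl1 ratio of the 40. The divergent TSS of Cstf1 lies 175 bases upstream of it, and the Nsl1 reads were densest 400 bases upstream, beyond that TSS, so the reads of the genes cannot be told apart. Plk1 and Aurkb, the other mitotic kinases, had Nsl1 ratios of 2.28 and 1.78 and Msl1 ratios of 3.77 and 1.85.

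The spindle checkpoint genes among the 40, Mad2l1, Bub1 and Bub3, and their target Cdc20 were past the fold for Nsl1. Mad2l1 (chr6:66485462), which binds Cdc20 until the chromosomes are attached, was past the fold in both. It had 35 Msl1 reads within 500 bases, a ratio of 5.1 (3.52 to 7.17), and 58 Nsl1 reads within 500 bases, a ratio of 6.9 (5.19 to 9.03). Its 35 Msl1 reads lay under the median of 37 over the 40 genes, and its Msl1 local level was low, at 6.87 reads per kb. Bub3 (chr7:138703905), which brings Bub1 to kinetochores, had 20 Msl1 reads within 500 bases, a ratio of 1.76 (1.07 to 2.74), and 51 Nsl1 reads within 500 bases, a ratio of 4.14 (3.06 to 5.48). Bub1, a kinetochore kinase, had ratios of 3.52 for Msl1 and 3.99 for Nsl1. Cdc20, the activator of the anaphase-promoting complex, had ratios of 3.93 for Msl1 and 3.0 for Nsl1, its Nsl1 value lying almost on the fold. In this set 4 genes of 4 were past it for Nsl1, against 23.4% of all protein-coding TSSs, and 3 for Msl1, against 23.6%. That was the largest share past the fold for Nsl1 among the role sets of 3 or more genes. The TFIIH pair, a smaller set, had 2 of 2 past it for Nsl1. Within 1000 bases, the Nsl1 ratios of Cdc20, Bub1 and Bub3 were 1.92, 2.40 and 2.64, under the fold, and that of Mad2l1 was 4.17. Checkpoint genes of the second list below are not in this set: Bub1b (3.23) and Ttk (5.38) were past the fold for Nsl1, and Mad1l1 (2.35) was not.

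The 9 genes in neither phase group act mainly in transcription. Cdk7 and Ccnh form the kinase of the general factor TFIIH, which also activates other Cdks, and both were among the 5 highest for Nsl1. Cdk7 (chr13:101500897) had 39 Msl1 reads within 500 bases, a ratio of 2.81 (1.99 to 3.86), and 86 Nsl1 reads within 500 bases, a ratio of 6.77 (5.37 to 8.44). Ccnh (chr13:85329053) had 36 Msl1 reads within 500 bases, a ratio of 4.87 (3.38 to 6.81), and 55 Nsl1 reads within 500 bases, a ratio of 6.64 (4.95 to 8.73). The Nsl1 reads were densest 50 bases from the TSS at both genes. The third high gene was Ccnc, the cyclin of the Mediator kinase module (chr4:21654873), with 48 Msl1 reads within 500 bases, a ratio of 4.11 (3.01 to 5.5), and 72 Nsl1 reads within 500 bases, a ratio of 6.45 (5.0 to 8.19). Its kinases differed from each other: Cdk8 was past the fold for Nsl1 only (2.21 for Msl1 and 4.11 for Nsl1). Cdk19 (chr10:40069114) had 49 Msl1 reads within 500 bases, a ratio of 3.96 (2.91 to 5.27), and 26 Nsl1 reads within 500 bases, a ratio of 2.25 (1.46 to 3.31), past it for Msl1 only.

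Cdk12 and Cdk13, which with Ccnk phosphorylate RNA polymerase II during elongation, were past the fold for Msl1. Cdk12 (chr11:98064649) had 99 Msl1 reads within 500 bases, a ratio of 5.2 (4.2 to 6.37), and 41 Nsl1 reads within 500 bases, a ratio of 2.43 (1.73 to 3.31). Its reads were densest upstream in both libraries, 350 bases for Msl1 and 600 bases for Nsl1. At the most upstream annotated TSS of Cdk12 the order turned, with ratios of 4.05 for Msl1 and 4.38 for Nsl1, both past the fold. Cdk13 (chr13:17896931) had 39 Msl1 reads within 500 bases, a ratio of 4.48 (3.16 to 6.18), and 39 Nsl1 reads within 500 bases, a ratio of 3.87 (2.73 to 5.33). Cdk5, a kinase best known from neurons whose activators are not classical cyclins (chr5:23929348), was past the fold in neither library, with 25 Msl1 reads within 500 bases, a ratio of 1.67 (1.08 to 2.48), and 42 Nsl1 reads within 500 bases, a ratio of 2.52 (1.81 to 3.42). The TSS of Slc4a2 lies 307 bases from it on the other strand, so the reads of these genes cannot be told apart.

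Ccnk was at the low end in both libraries at the GENCODE start (chr12:109424580), with 19 Msl1 reads within 500 bases, a ratio of 1.32 (0.79 to 2.06), and 9 Nsl1 reads within 500 bases, a ratio of 0.703 (0.321 to 1.34). The RefSeq start matched to mm9 lies 6632 bases upstream, and at it were 41 Msl1 reads, a ratio of 3.05 (2.18 to 4.16), and 66 Nsl1 reads, a ratio of 5.51 (4.23 to 7.06). At that start Ccnk was past the fold in both. The TSS of Setd3, on the other strand, lies in the same window. RefSeq promoter entries were found for 28 of the 40 genes and each matched mm9, and only Ccnk had no matched start within 500 bases of the start used. For 4 genes a second start was counted. At that of Cdk1, 2073 bases downstream, the Msl1 ratio was 3.92 (2.89 to 5.22) and the Nsl1 ratio 0.741 (0.355 to 1.37), and at that of E2f3, 1449 bases downstream, they were 3.71 (2.67 to 5.03) and 1.32 (0.753 to 2.16). At the second starts of Ccnh and Ccnd3 the intervals of the libraries overlapped, with 1.43 (0.709 to 2.57) for Msl1 and 1.07 (0.489 to 2.05) for Nsl1 at Ccnh, and 2.07 (1.4 to 2.95) and 1.31 (0.81 to 2.01) at Ccnd3.

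The direct comparison of the libraries used the Msl1 ratio over the Nsl1 ratio of the same gene on the log2 scale. Its median was 0.13 over the 40 genes, 0.60 at G1/S and -0.13 at G2/M, against -0.03 over 17370 genes. The 4 genes at the Msl1 end were E2f3 with 2.09 (1.38 to 2.81), Ccnd2 with 1.65 (0.59 to 2.70), Wee1 with 1.52 (0.80 to 2.23) and Rb1 with 1.52 (0.49 to 2.54). The 4 at the Nsl1 end were Cdk4 with -1.30 (-1.89 to -0.72), Cdk7 with -1.27 (-1.83 to -0.71), Bub3 with -1.23 (-1.99 to -0.47) and Aurka with -1.13 (-1.68 to -0.59). The Msl1 ratio was at least 2 times the Nsl1 ratio at 9 of 40, against 12.4% of all genes compared, and 7 of these 9 were G1/S genes. The Nsl1 ratio was at least 2 times the Msl1 ratio at 5, against 14.6%. The counting interval was above 0 at 11 genes, against 15.9% of all, below 0 at 10, against 19.4%, and included 0 at 19. With a window of 250 bases on each side of the TSS the median over the 40 genes was -0.48, and the median over all genes in that window is not given. With Ccnk alone moved to its RefSeq start it was -0.04, near the -0.03 over all genes, so its sign is not settled.

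Position separated Msl1 from Nsl1 more evenly than height did. From 500 to 2000 bases downstream, the median level over the 40 genes was 3.07 times the local level for Msl1 and 1.04 times for Nsl1, where the medians over all genes were 1.48 and 1.14 times. Msl1 was the higher at 38 of 40, against 68.2% of all. Aurka and Rbl2 were the exceptions. The interval of the downstream level was above 1 at 34 genes for Msl1, against 44.7% of all, and at 7 for Nsl1, near the 17.2% of all. The downstream ratio, the level from 500 to 2000 bases downstream over that within 500 bases, was taken where at least 20 reads lay within 500 bases. It was at least 1 at 17 of 37 genes for Msl1, against 21.2% of all, and at 1 of 36 for Nsl1, against 4.36%. Its median was 0.971 over these 37 genes (Msl1) and 0.373 over these 36 (Nsl1), and it was 0.689 and 0.422 over all genes with enough reads. Of 34 genes with both values, Msl1 had the higher at 31, against 80.6% of all.

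**Figure D2:**
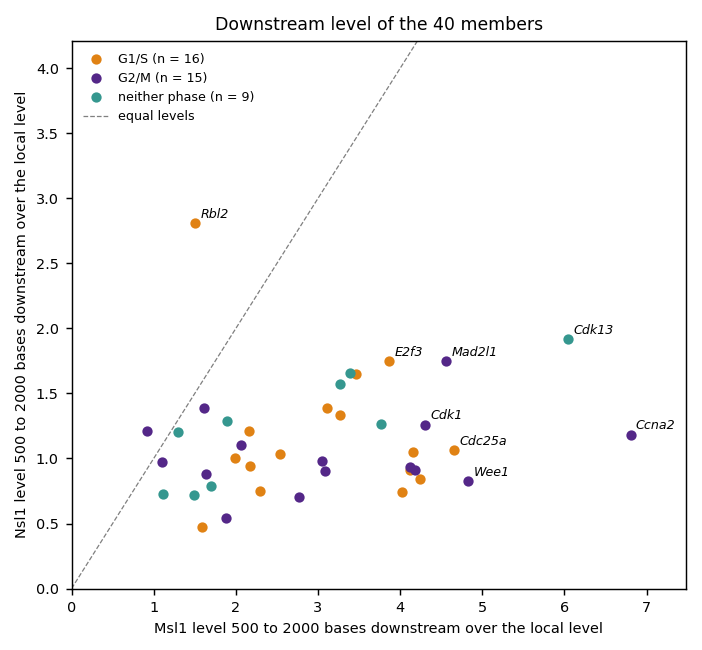
Level from 500 to 2000 bases downstream of the TSS over the local level, for Msl1 on the x axis and Nsl1 on the y axis, with 1 point per gene coloured by phase group. The dashed line marks equal levels: 38 of 40 points lie on its Msl1 side, and Ccna2 and Cdk13 are farthest to the right.

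The highest Msl1 downstream ratios were at Cdc25a with 1.98 (1.28 to 3.12), Bub3 with 1.57 (0.91 to 2.79) and Cdk4 with 1.53 (1.01 to 2.36). All 3 genes were under the fold for Msl1 at the TSS, which is the denominator of this ratio. Their downstream levels were 4.65, 2.76 and 3.11 times the local level, against the median of 3.07. E2f1, with 17 Msl1 reads within 500 bases and 78 downstream, was left out by the minimum of 20 reads, and its ratio had an interval from 1.79 to 5.52. The highest Nsl1 downstream ratios were at E2f3 with 1.07 (0.592 to 1.97), E2f1 with 0.952 (0.573 to 1.6) and Rbl2 with 0.778 (0.505 to 1.2). At the TSS, the denominator, E2f3 and E2f1 had low Nsl1 ratios of 1.64 and 1.74, and E2f3 had 20 reads, the minimum. Ccnk, Ccnd2 and Rb1 were left out by this minimum, with 9, 10 and 11 Nsl1 reads within 500 bases and 14, 15 and 15 downstream. At Rbl2 the downstream Nsl1 level was 2.81 (2.06 to 3.74) times the local level, the highest of the 40. The highest downstream Msl1 level was that of Ccna2, at 6.8 (5.19 to 8.79) times, where Nsl1 was at 1.18 (0.708 to 1.86). The Msl1 local level of Ccna2, 6.47 reads per kb, was the lowest of the 40. The like ratios of Ccna2 within 500 bases depend on the window: within 250 bases they were 0.928 for Msl1 and 8.58 for Nsl1. Its Msl1 reads were densest 500 bases downstream and its Nsl1 reads 50 bases upstream.

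Within 2 kb of the TSS on both sides, 27 of 40 genes were at 2 times the local level or more for Msl1, against 29.1% of all, and 11 for Nsl1, against 16.7%. By phase these were 12 G1/S and 10 G2/M genes for Msl1, and 2 and 4 for Nsl1. The highest for Msl1 were Cdk13 with 152 reads, a ratio of 4.36 (3.64 to 5.2), and Ccna2 with 104 reads, a ratio of 4.02 (3.23 to 4.96). The highest for Nsl1 were Aurka with 164 reads, a ratio of 3.1 (2.61 to 3.65), and Mad2l1 with 93 reads, a ratio of 2.77 (2.21 to 3.44).

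The mean profile of the 40 genes had its Msl1 maximum from 200 to 250 bases downstream, at 6.42 times the local level, and its Nsl1 maximum from 50 bases upstream up to the TSS, at 5.02 times. The same bins held the maxima over all protein-coding genes, at 3.1 and 3.76 times, so the place was shared. The mean height over the 40 genes was greater in both libraries, but for Nsl1 it differed by group. The Nsl1 maximum was 4.0 times at G1/S genes, 5.15 at G2/M genes and 9.6 at the 9 other genes. In the bin from 100 to 50 bases upstream, Msl1 was at 0.839 ± 0.287 times the local level (SE over 40 genes), from 19 reads, where Nsl1 was at 4.53 ± 0.759 times, from 119 reads. Msl1 was thus near the local level just where the Nsl1 reads were near their highest. The densest 300 bases of Msl1 were centred downstream of the TSS at 33 of 40 genes, against 62.1% of all, and those of Nsl1 at 10, against 41.3%.

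**Figure D3:**
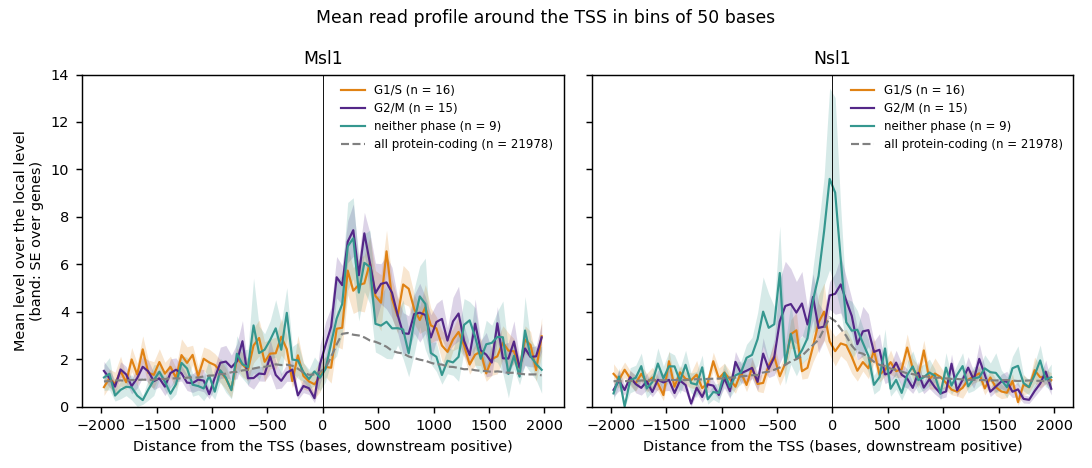
Mean level over the local level in bins of 50 bases from 2000 bases upstream to 2000 bases downstream of the TSS, for Msl1 (left) and Nsl1 (right), with bands for the SE over genes and a dashed line for all protein-coding genes. Msl1 rises on the downstream side in all 3 groups, and Nsl1 is highest next to the TSS, up to 9.60 times the local level in the 9 genes of neither phase.

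By group, the Msl1 maximum of the G2/M genes lay from 250 to 300 bases downstream at 7.44 times the local level, and that of the G1/S genes from 550 to 600 bases at 6.55 times. At 250 to 300 bases, the bin of the G2/M maximum, the G1/S genes were at 4.88 ± 0.958 times. The G2/M genes were at 7.44 ± 1.1 times there (SE over 16 and 15 genes). The SE gives the spread over genes in 1 library, genes are not replicates, and the differences between groups were not tested. With 50 to 66 reads in such a bin the place of a maximum is loosely set. Over all protein-coding genes, Nsl1 was at 3.76 times in the bin up to the TSS. In that bin the G1/S genes were lower, at 2.75 ± 0.561 times. The G2/M genes were at 4.68 ± 0.581 and the 9 other genes at 9.6 ± 3.83. The last value has the widest error, and Cdk7, Ccnh and Ccnc had the highest levels among the 9 genes next to the TSS.

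**Figure D4:**
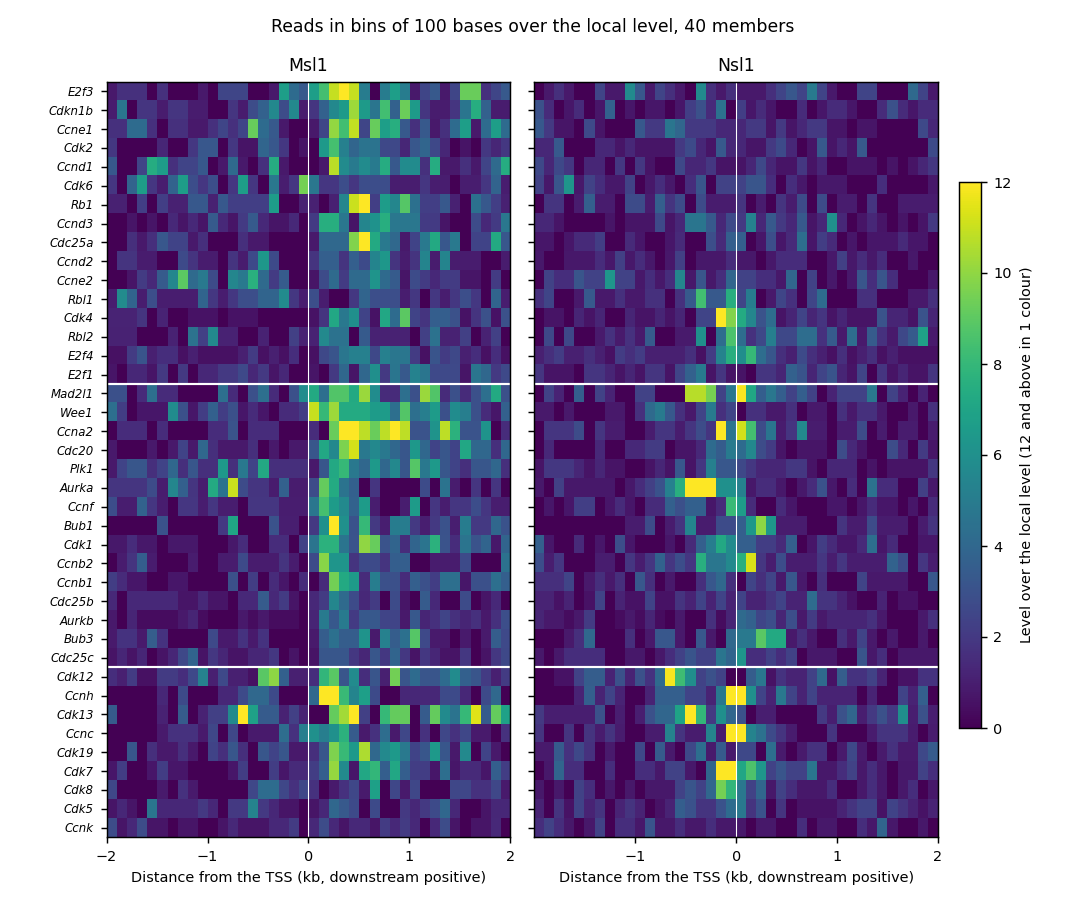
Reads in bins of 100 bases over the local level for each of the 40 genes (rows), from 2 kb upstream to 2 kb downstream of the TSS, for Msl1 (left) and Nsl1 (right), with white lines between G1/S, G2/M and the other genes. Most of the bright Msl1 bins lie downstream of the TSS, and the bright Nsl1 bins lie at the TSS, upstream of it at Aurka, Mad2l1, Cdk12 and Cdk13, or downstream at Bub1 and Bub3.

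The motifs were searched on both strands from 250 bases before to 50 bases after each TSS. TTTGAA, the CHR known from promoters of mitotic genes, was found at 10 of 15 G2/M genes, 2 of 16 G1/S genes and 0 of 9 others, and at 15.9% of all protein-coding promoters. CCAAT was found at 12, 5 and 2 of them and at 37.0% of all. Both occurred at 9 G2/M genes and no other member, against 6.37%. An E2F site, written as TTTCCCGC, TTTCGCGC, TTTGCCGC or TTTGGCGC, was found at 5 G1/S genes and 1 G2/M gene, against 2.8%. The motifs overlap one another in no printed promoter, and a match is a description and not a site shown to be bound.

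Only the letters TTTGAA were searched for the CHR, on either strand and at any place in the stretch. The 12 members with TTTGAA had a median Msl1 ratio of 3.22 and a median Nsl1 ratio of 3.31. The 28 without TTTGAA had 2.96 and 2.11. For CCAAT the medians were 3.31 and 2.73 at the 19 members with it and 2.87 and 2.52 at the 21 without. Since 10 of the 12 with TTTGAA are G2/M genes, motif and phase group cannot be told apart. CACGTG, the E-box bound by Myc and Usf factors among others, was added after it had been seen in Cdk4. It occurred at 5 of 40 members, Ccnh, Cdk4, Cdk7, Aurkb and Wee1, against 7.7% of all promoters, and 3 times or more at 1 member, Cdk4, against 0.0956%. Of these 5 genes, Cdk4, Cdk7 and Ccnh were past the fold for Nsl1, and Aurkb and Wee1, at 1.78 and 1.74, were not. Wee1 was among the 4 genes at the Msl1 end of the Msl1 over Nsl1 ratio. Bub3 and Aurka, at the Nsl1 end with Cdk4 and Cdk7, held no CACGTG.

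A second list of 44 cell cycle genes, among them inhibitors, E2f relatives and subunits of the anaphase-promoting complex, was read in the same way. Of these, 21 were past the fold for Msl1, 21 for Nsl1, 11 for both and 13 for neither, with median ratios of 2.96 and 2.85. Over all protein-coding TSSs the shares were 23.6% for Msl1, 23.4% for Nsl1 and 11.7% for both, and the medians 1.84 and 1.68. The shares of the 44 genes, 47.7%, 47.7% and 25%, were near the 52.5%, 45% and 25% of the 40 genes. The highest Msl1 ratios were at Ccnl2 and Ccng2, a cyclin of RNA processing and a cyclin linked to cell cycle arrest, with 6.03 and 5.65. The highest Nsl1 ratios were at Cdc16, a subunit of the anaphase-promoting complex, with 191 Nsl1 reads within 500 bases, a ratio of 17.6 (15.0 to 20.5), and at Cdca8, of the chromosomal passenger complex, with 6.83. The Nsl1 ratio of Cdc16 was above that of all 40 members. Cdkn2d, an inhibitor of Cdk4 and Cdk6, held 0 reads within 500 bases in both libraries, and 4 Msl1 and 0 Nsl1 reads within 2 kb. Whether reads can be mapped uniquely there was not tested, so no level is read from it. Of the other genes, Cks1b, a subunit of Cdk complexes, was the lowest for Msl1 with 0.455, and Tfdp2, a partner of E2f factors, for Nsl1 with 0.55. The TSS of Shc1 lies 60 bases from that of Cks1b on the other strand, so the reads of these genes cannot be told apart. Within 2 kb the Msl1 ratio of Cks1b was 1.75. The downstream level of the 44 genes had a median of 2.13 for Msl1 and 1.09 for Nsl1, so the order of the proteins there was the same as at the 40 genes.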

How the data were processed

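Reads from 1 Msl1 and 1 Nsl1 ChIP-seq library of wild type mESCs were counted at TSSs. Base calling (CASAVA 1.8.2) and alignment to mm9 (Bowtie 0.12.7) are named in the submitters' notes, and the authors deposited 1 line per unique read with its position, its strand and a score of 255. These positions are unnormalized, and the deposited score was not used. The libraries held 23888517 Msl1 and 26084098 Nsl1 reads, of which 81.7% and 95.4% of the nuclear reads remained with 1 read per position and strand.

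Reads were moved to fragment centres by 102 bases (Msl1) and 67 bases (Nsl1), from the strand cross-correlation of each library, and counted with Python 3.11.15 and numpy 2.4.6. TSSs came from a GENCODE annotation of mm9, as the start of the transcript with the longest coding sequence. Ratios to the local level and downstream ratios have exact binomial intervals (scipy 1.17.1), the log2 Msl1 over Nsl1 ratio has a normal approximation from its 4 counts, and the counting was tested on simulated data. The Input of another study, used by the authors, was not used here.

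The members and lists were chosen with earlier results of these data known. Values in full are given for the 5 highest and 5 lowest ratios in each library, 4 genes at each end of the Msl1 over Nsl1 ratio, the 3 highest downstream and 2 highest 2 kb ratios, Cdk4 and Cdk19, and of the second list the 2 highest and 2 lowest ratios. Other windows, flanks, starts, shifts, folds and all reads were tried.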

Additional observations from a re-analysis of the deposited data

How the results depend on the processing

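No paired analysis was possible because each antibody has 1 library. With 17 to 104 reads in most windows at the TSS, counting error limits single ratios, and no setting measures the spread between cultures. The median log2 Msl1 over Nsl1 ratio moved to -0.48 within 250 bases, and to -0.04 with the RefSeq start of Ccnk, a setting chosen after the data had been seen. Within 1000 bases, 10 members were past the fold for Nsl1, 3 G2/M genes in both libraries, and the median Msl1 downstream ratio was 0.775; it was 0.760 from 1000 to 2000 bases downstream. Against the genome level, 36 members were past the fold for Msl1, the medians were 5.04 and 4.27, and 4 G1/S and 12 G2/M genes were past it in both. The order of genes changed there too: for Msl1, Ccna2 was at 3.95 and Ccnh at 4.91, under the median, and Aurkb rose from 1.85 to 6.13. With other TSSs taken out of the flanks, 1 G1/S gene was past it in both. At a fold of 2, 33 members were past it for Msl1 and 4 G1/S genes in both. At a fold of 4 the counts were 10 for Msl1, 11 for Nsl1 and 2 G2/M genes in both. The cause of these moves was not tested, apart from what each setting changes by construction. Among 308 values of the genes given in full, 254 stayed within their counting interval and 54 left it, 22 of these against the genome level. All reads, a shift of 100 bases, the most upstream TSS and the RefSeq start of Ccnk moved no count of the 40 genes by over 1.5 times. The G1/S minus G2/M difference of the median log2 ratios was -0.49 for Msl1 and -0.82 for Nsl1, -0.15 and -0.08 within 1000 bases, and -0.93 and -1.02 within 250 bases. The settings reuse the same reads, and the difference was not tested.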
